A study of Mus musculus with 54 samples.

Results

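The data describe motor neurons of the vagus nucleus (CN10) at P112, the study's later postnatal age, compared between mice with the mutant human SOD1 transgene and wild-type mice. The 6 libraries were chosen by their sample titles alone, 3 of transgenic (mSOD) and 3 of wild-type (wt) animals, out of 54 libraries in the series. Neurons were cut from tissue sections by laser capture microdissection, and polyadenylated RNA was sequenced with the Smart-seq2 protocol, which amplifies full-length cDNA from small inputs. The mSOD animals were SOD1G93A mice, which carry many copies of a human SOD1 gene with a disease mutation in addition to their own Sod1, and the wt animals were littermates without it. P112 is the symptomatic stage and P56 the stage before symptoms, both in days after birth. Every CN10 library at P112, of either genotype, carries the project prefix P10814. For comparison, 3 mSOD and 3 wt libraries of CN10 at P56 (all of project P11355), 3 and 3 libraries of the hypoglossal nucleus (CN12) at P112, and 3 mSOD and 5 wt libraries of lumbar spinal motor neurons (SC) at P112 were used. Sex, the number of animals per library and the number of cells per library are not given in the sources used here. The series describes the replicates as biological, and their numbers below follow deposition order and pair nothing. Smart-seq2 does not mark strand, so reads of overlapping genes cannot be separated by it.

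Vagal motor neurons lie in the dorsal motor nucleus and the nucleus ambiguus of the medulla. Most are preganglionic parasympathetic neurons that use acetylcholine and drive the stomach, gut, heart and airways, while those of the ambiguus also reach the striated muscles of the larynx and pharynx. The motor neurons of the hypoglossal nucleus and spinal cord are somatic and drive skeletal muscle directly. In SOD1G93A mice the spinal motor neurons of the limb muscles degenerate early, and the hypoglossal neurons of the tongue are affected as well. Misfolded mutant SOD1 is linked in such neurons to endoplasmic reticulum stress, the integrated stress response and the gene programme of nerve injury, in which Atf3, Sprr1a, Gap43, Gal and Sox11 are switched on.

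The 6 libraries held between 3162103 and 4779761 counts, and the 54 libraries between 1071477 and 8877994. Levels are given as CPM, counts divided by a library size that was scaled by the trimmed mean of M-values and set to a common total. Human SOD1 took 5.58%, 5.75% and 5.05% of the counts of the mSOD libraries and at most 0.00387% of those of the wt libraries, so the transgene followed the labels. Mouse Sod1 was at 923 ± 181 CPM in mSOD and 892 ± 50.2 CPM in wt (SD, n = 3 each; log2 difference 0.05, SE 0.24). The cholinergic genes Chat (choline acetyltransferase), Slc18a3 (vesicular acetylcholine transporter) and Slc5a7 (choline transporter) were at 76.2 to 124, 276 to 458 and 172 to 419 CPM. Summed marker levels of other cell types overlapped between the genotypes for microglia (37.6 to 54.5 CPM in mSOD, 32.9 to 45.2 in wt), astrocytes (536 to 600 and 513 to 590) and oligodendrocytes (104 to 122 and 111 to 146). The 6 catecholamine markers summed to 319 to 345 CPM in mSOD and 389 to 441 in wt, without overlap, although none of the 5 that were tested separated the genotypes alone. Gfap, the intermediate filament of reactive astrocytes, was at 9.32, 6.04 and 21.4 CPM in mSOD and 4.92, 11.7 and 15.9 CPM in wt (log2 difference 0.18, SE 0.79), and the microglial gene Aif1 did not pass the filter on low counts. In bulk libraries, fewer cells of a type and less RNA per cell cannot be told apart.

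The mSOD libraries differed from each other as much as from the wt libraries. Correlations of log2 CPM were 0.919 to 0.940 between mSOD libraries, 0.948 to 0.958 between wt libraries and 0.933 to 0.951 across genotypes. In a multidimensional scaling of the 6 libraries, mSOD replicate 1 stood apart on the leading dimension (24.6% of the variation) and wt replicate 2 on the next (22.6%). mSOD replicate 3 had 3.83% of its counts on mitochondrially encoded genes, against 6.24% to 7.07% in the other 5 libraries. Values that rest on mSOD replicate 1 are given with and without it.

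No mouse gene differed between mSOD and wt vagal neurons at an adjusted p under 0.05 in the quasi-likelihood test of edgeR (0 of 18493 tested genes, 0%), the threshold by which a gene is called below. The smallest adjusted p was 0.435, for Lypd6b. At an unadjusted p under 0.05 there were 669 genes (3.62%), 267 higher in mSOD (1.44%) and 402 lower (2.17%), and the DESeq2 Wald test called 4 genes. Genes whose 3 mSOD values all lay above or all below the 3 wt values numbered 1632 (8.82%), 757 higher (4.09%) and 875 lower (4.73%). The log2 difference was above 0 for 51.2% of genes, and its median was 0.01.

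**Figure D1:**
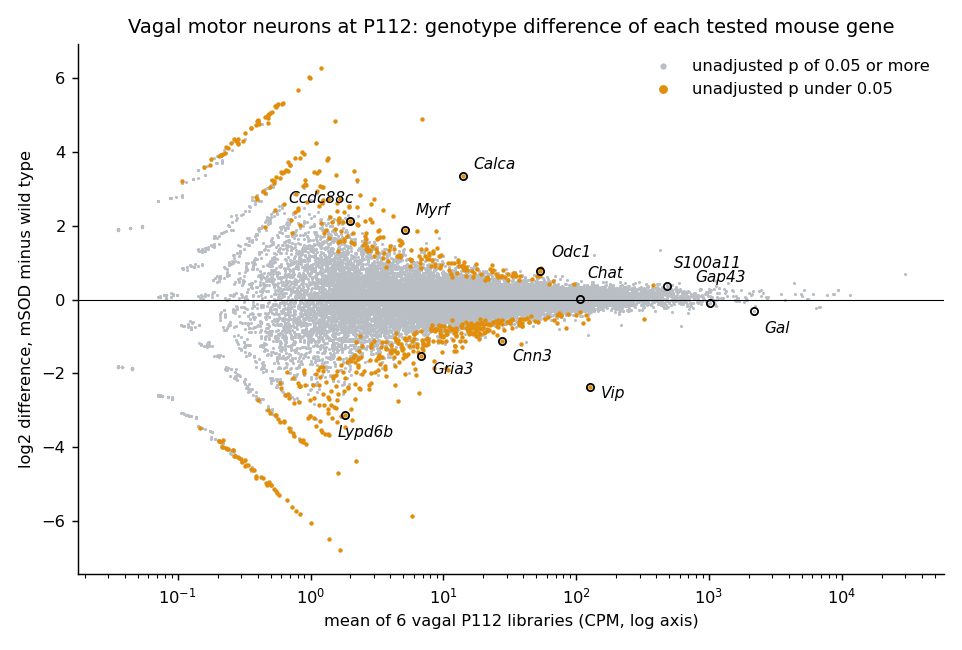
Genotype difference (log2, mSOD minus wild type; y axis) against mean level over the 6 vagal libraries (CPM, log axis) for each of the 18493 tested mouse genes; orange points have an unadjusted p under 0.05 and ringed points are genes named in the text. The spread of differences narrows with level, Vip is the ringed gene farthest below 0 among those above 50 CPM, and Chat, Gap43, Gal and S100a11 lie near 0.

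How small a difference could be bounded depended on level. The 95% intervals counted here come from the fit of all 54 libraries, which takes the spread from all 16 groups. They do not show what the 6 libraries alone would bound. The 95% interval of the log2 difference lay within -1 to 1 for 6929 genes (37.5%). This share was 0 of 2205 genes with a mean under 1 CPM, 3.43% at 1 to 10 CPM, 59.0% at 10 to 50 CPM, 91.0% at 50 to 200 CPM and 93.5% at 200 CPM or more. A change of at least 2-fold was therefore outside the interval for most genes above 50 CPM, and lay within it, in at least 1 direction, for most genes under 10 CPM.

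Among the genes higher in mSOD with the smallest p and no overlap between the genotypes was Odc1, which encodes ornithine decarboxylase, the rate-limiting enzyme of polyamine synthesis. Odc1 was at 55.3, 66.7 and 80.4 CPM in mSOD and at 49.2, 32.0 and 38.4 CPM in wt (log2 difference 0.76, SE 0.20, unadjusted p 0.0005, edgeR adjusted p 0.765). The lowest mSOD value lay above the highest wt value, and leaving out any library left the log2 difference between 0.62 and 0.94. Ccdc88c, whose protein binds Dishevelled in Wnt signalling, was at 4.50, 3.15 and 2.14 CPM in mSOD and 0.55, 0.21 and 1.38 CPM in wt (log2 difference 2.12, SE 0.58, edgeR adjusted p 0.765). Its counts were 10 to 14 per mSOD library and 1 to 6 per wt library, so the difference rests on few reads. Slc16a6, a member of the monocarboxylate transporter family (log2 difference 1.89, SE 0.53), and Poc5, a centriole protein (1.39, SE 0.38), had the same adjusted p of 0.765 in edgeR's test. Pfkfb4, an enzyme that sets the level of the glycolytic activator fructose 2,6-bisphosphate, was at 7.39, 3.94 and 9.44 CPM in mSOD and 1.92, 3.18 and 2.30 CPM in wt (log2 difference 1.47, SE 0.44). Myrf, a transcription factor of myelin genes, was at 5.46, 5.25 and 13.7 CPM in mSOD and 2.19, 2.97 and 1.38 CPM in wt (log2 difference 1.90, SE 0.56), and without mSOD replicate 3 the difference was 1.28. The summed oligodendrocyte markers overlapped between the genotypes, as given above. The other 4 genes that the naming rule took were Dcbld2 (a neuropilin-like membrane protein, log2 difference 1.54), Gng11 (a G protein gamma subunit, 2.64), Kctd11 (a ubiquitin ligase adaptor, 3.78, and 2.29 without mSOD replicate 2) and Fam186b, whose wt libraries held no count.

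Lower in mSOD with the smallest p of all genes was Lypd6b, which encodes a Ly6-family protein that modulates nicotinic acetylcholine receptors. It was at 0.64, 0.26 and 0.21 CPM in mSOD and 1.92, 5.94 and 1.84 CPM in wt (log2 difference -3.14, SE 0.83, edgeR adjusted p 0.435), that is 1 or 2 counts per mSOD library and 7 to 28 per wt library. Gria3, a subunit of AMPA glutamate receptors, was at 4.18, 2.10 and 4.08 CPM in mSOD and 17.5, 6.37 and 6.68 CPM in wt (log2 difference -1.53, SE 0.37, edgeR adjusted p 0.765). Without wt replicate 1, which held the highest Gria3 level, the difference was -0.91. Cnn3, an actin-binding calponin, was at 11.9, 21.8 and 18.2 CPM in mSOD and 37.8, 31.2 and 44.2 CPM in wt (log2 difference -1.12, SE 0.28). Kctd7, mutated in a progressive myoclonic epilepsy, was at 5.46, 9.97 and 6.01 CPM in mSOD and 18.9, 18.3 and 14.7 CPM in wt (log2 difference -1.27, SE 0.31). Both genes were named by a rule that requires no overlap between the genotypes. Whichever library was left out, their log2 differences lay between -0.91 and -1.58. The remaining genes of this rule were Nxpe3 (-1.42), Dab1, the adaptor of Reelin signalling (-1.30, and -0.80 without wt replicate 2), Tanc1, a postsynaptic scaffold (-1.96), Vrk1, a kinase gene with mutations in human motor neuron disease (-2.03), Hacd2, an enzyme of very long chain fatty acid synthesis (-1.23), and Zc3h11a. Zc3h11a had 0 counts in all 3 mSOD libraries and 0.55, 2.76 and 1.38 CPM in wt. Its adjusted p in edgeR's test was 0.765, and it shares its locus with Zbed6, so how its reads were assigned is uncertain.

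Among genes with a mean of at least 50 CPM, where the intervals were narrow, the differences with the smallest p and no overlap were below 1 on the log2 scale, apart from that of Vip, described with the neuropeptides. Higher in mSOD after Odc1 were Tmed3, a cargo receptor of the secretory pathway (log2 difference 0.84, SE 0.29), Eif3l, a subunit of translation initiation factor 3 (0.50, SE 0.18), Tmbim4, a Golgi membrane protein (0.42, SE 0.19), and the ribosomal protein gene Rps23 (0.39, SE 0.18). Eif3l was the tightest of them, with 75.9, 77.1 and 80.6 CPM in mSOD against 55.8, 53.1 and 55.9 CPM in wt. Lower were Itsn1, an endocytic scaffold (log2 difference -0.63, SE 0.21), Rcan2, a regulator of calcineurin (-0.76, SE 0.27), Unc50 (-0.52, SE 0.21) and Rab3b, a small GTPase of synaptic vesicles. Without wt replicate 2 the difference was -0.43 for Rcan2 and -0.34 for Unc50. Rab3b was at 82.0, 82.7 and 99.3 CPM in mSOD and 151, 141 and 122 CPM in wt (log2 difference -0.65, SE 0.27, unadjusted p 0.0209, edgeR adjusted p 1).

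The same contrast at P56, in other animals and another sequencing project, was then read for these genes. Of the 29 genes named by the rules above, 11 had the same sign at P56, 3 of them with an unadjusted p under 0.05, and 2 had the opposite sign with an unadjusted p under 0.05; none was called at P56. At P56 as a whole, 13.4% of genes had an unadjusted p under 0.05. Odc1 was at 55.6 to 76.2 CPM in the 3 mSOD libraries of P56 and 28.7 to 45.1 CPM in wt (log2 difference 0.82, SE 0.20, edgeR adjusted p 0.163), so the genotypes did not overlap at either age. Slc16a6 (1.13) and Dcbld2 (1.47) were the other genes with the same sign and an unadjusted p under 0.05. Myrf went the other way, at 0.43 to 1.04 CPM in mSOD and 3.08 to 4.97 CPM in wt at P56 (log2 difference -2.42, SE 0.64), and so did Pfkfb4 (-0.96, SE 0.47). The difference of the Myrf effect between the ages was 4.31 (SE 0.84, edgeR adjusted p 0.0631), the smallest p of that test. Across all 669 genes with an unadjusted p under 0.05 at P112, 344 (51.4%) had the same sign at P56, and of those with an unadjusted p under 0.05 at P56, 55 had the same sign and 47 the opposite.

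**Figure D2:**
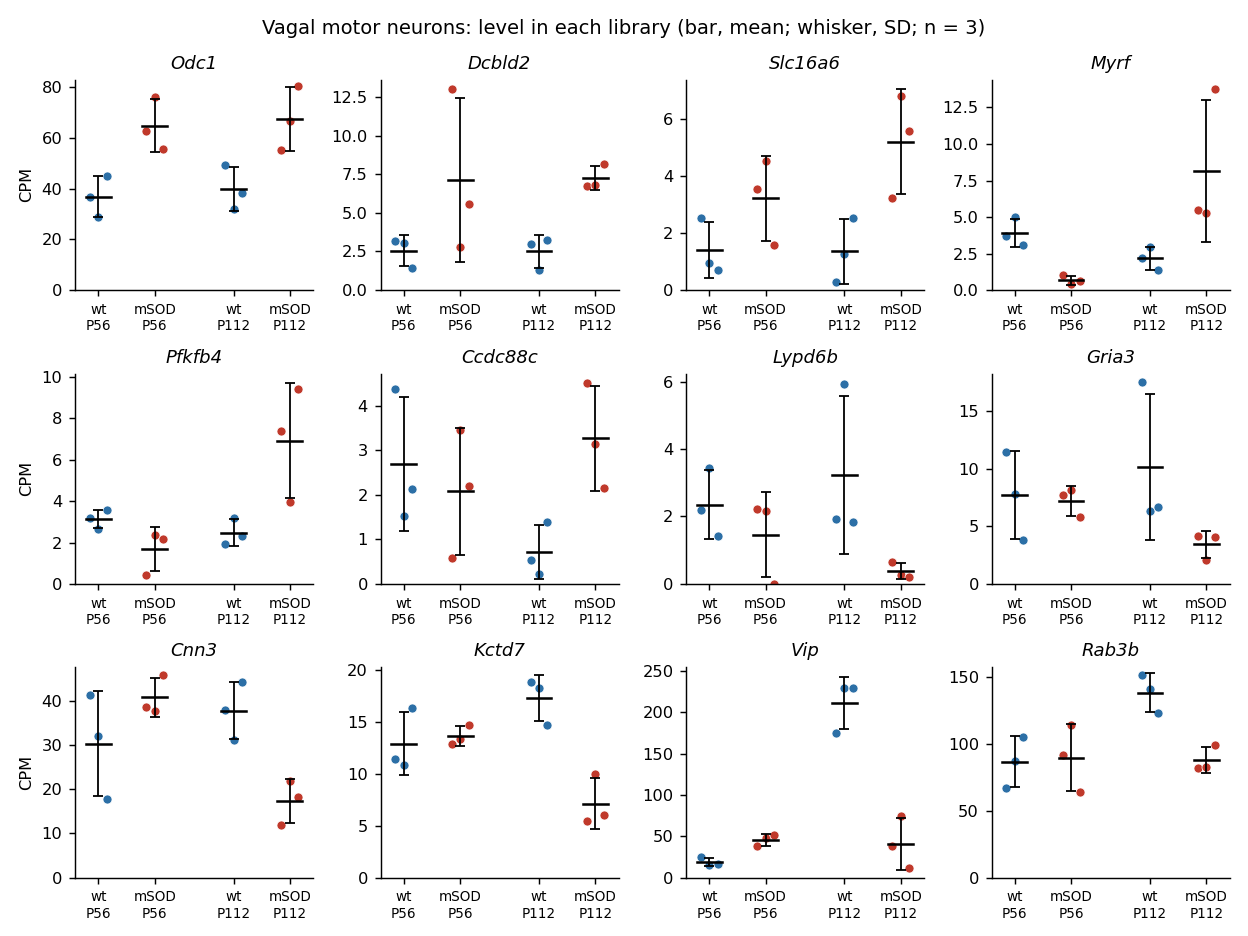
CPM of 12 named genes in each vagal library at P56 and P112, wild type in blue and mSOD in red; points are libraries, the bar is the mean and the whisker 1 SD (n = 3). Odc1 is higher in mSOD at both ages, Myrf and Pfkfb4 are higher at P112 and lower at P56, and wild-type Vip is high only at P112, where age and sequencing project coincide.

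No gene was called by a test of the age difference (0 of 18493, 0%; 1449 genes, 7.84%, at an unadjusted p under 0.05 by edgeR; 8 genes called by DESeq2). Age and project coincide for CN10, so levels at P56 and P112 cannot be compared as an effect of age.

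Neuropeptides and granins, the stored secretory products of these neurons, included Vip, the largest of the separations named among genes of at least 50 CPM. None of the 24 listed genes was called; 2 were higher and 1 lower at an unadjusted p under 0.05, 5 were lower in every mSOD library than in any wt library (4.73% of all genes were) and none was higher in every one (4.09% of all genes), and the median log2 difference was 0.03, against 0.01 over all genes. Vip, the vasoactive intestinal peptide that relaxes smooth muscle, was at 38.2, 74.0 and 11.4 CPM in mSOD and 175, 230 and 229 CPM in wt (log2 difference -2.36, SE 0.73, unadjusted p 0.00485, edgeR adjusted p 1). All wt values lay above all mSOD values, and the difference stayed between -1.91 and -3.11 whichever library was left out. At P56, however, Vip was at 15.5 to 24.8 CPM in wt and 37.7 to 51.6 CPM in mSOD (log2 difference 1.25, SE 0.75), with the order of the genotypes turned. The difference of the Vip effect between the ages was -3.61 (SE 1.05, edgeR adjusted p 0.455). Penk, the precursor of the enkephalins, was at 79.1, 82.7 and 86.9 CPM in mSOD and 232, 127 and 129 CPM in wt (log2 difference -0.97, SE 0.78). The summed catecholamine markers were also lower in every mSOD library, as given above, and their part in the Vip and Penk values was not tested.

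Galanin was among the most abundant transcripts of these neurons. Per length, Gal ranked 10 among all entries in wt, at 4957 RPKM (reads scaled by gene length and depth) ± 182 (SD, n = 3), and it was at 3939 RPKM ± 216 (SD, n = 3) in mSOD. The entries above it were Rn7s6, Ppia and entries with Gm names. Mitochondrially encoded genes such as mt-Co3 (mean 8552 CPM in wt) were not among them, and the reason was not tested. The level of Gal was 1994, 1850 and 1988 CPM in mSOD and 2474, 2434 and 2344 CPM in wt, without overlap (log2 difference -0.31, SE 0.70, edgeR adjusted p 1). That SE takes the spread of Gal from all 16 groups of the series. In a fit of the 6 libraries alone the 95% interval of the difference ran from -0.65 to 0.01. Adcyap1, the precursor of PACAP, was at 408, 481 and 416 CPM in mSOD and 496, 498 and 527 CPM in wt (log2 difference -0.22), and the granin Scg3 at 136, 131 and 113 against 151, 162 and 142 CPM (-0.26). Calca and Calcb, the genes of the calcitonin gene-related peptides, were the members with an unadjusted p under 0.05 on the higher side. Calca was at 68.5, 0.52 and 7.72 CPM in mSOD and 4.92, 0.42 and 2.30 CPM in wt (log2 difference 3.34, SE 0.98), and 0.82 without mSOD replicate 1. Calcb was at 40.5, 0.79 and 0.43 CPM in mSOD and 8.76, 0.42 and 2.30 CPM in wt (log2 difference 1.85), and -2.55 without mSOD replicate 1, so its direction rests on that library. The GDNF receptor gene Gfra1 behaved alike, at 5.79, 0.26 and 0 CPM in mSOD (log2 difference 2.08), and -1.50 without that library. Of Calca, wt CN12 libraries held a mean of 1314 CPM. Whether somatic motor neurons add to the values of mSOD replicate 1 was not tested.

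Transmitter receptors and ion channels had list medians close to 0. Of 26 glutamate, GABA and glycine receptor genes none was called, with a median log2 difference of -0.05, and Gria3 was the member with an unadjusted p under 0.05. The AMPA receptor subunit Gria2, among the most abundant of them, had a log2 difference of 0.09. Glra2, the alpha 2 subunit of the glycine receptor, was singled out after its values were seen. It was at 195, 199 and 177 CPM in mSOD and 79.1, 64.9 and 104 CPM in wt, so that the 3 mSOD libraries lay close together and all above wt. Its log2 difference was 1.20 with an SE of 1.24 in the fit of all libraries (unadjusted p 0.346), and 1.20 with a 95% interval from 0.78 to 1.62 in the fit of the 6 libraries alone (unadjusted p 3.48e-05, edgeR adjusted p 0.485). Glra2 varied widely elsewhere, from 19.7 to 179 CPM in the wt libraries of CN10 at P56. Of 32 voltage-gated channel genes none was called and the median was -0.04. Cacna1d, a pore subunit of L-type calcium channels, was at 2.25, 4.99 and 4.29 CPM in mSOD and 1.92, 0.85 and 1.61 CPM in wt (log2 difference 1.42, unadjusted p 0.00872). Cacna1g, the pore of a T-type calcium channel, had a log2 difference of -0.82 (unadjusted p 0.0147) with overlapping genotypes, and -0.51 without wt replicate 1. The sodium channel genes Scn2a (0.01), Scn3a (0.08) and Scn9a (0.03) and the channel-interacting Kcnip4 (0.07) were the most abundant, and differed by less than their SE of 0.24 to 0.45.

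Lists of identity and receptor genes of the vagal motor neuron had medians between -0.12 and 0.03. Among 10 cholinergic motor neuron markers none was called, with a median of 0.03 and Calca as the member with an unadjusted p under 0.05. Chat (log2 difference 0.01, SE 0.23), Slc18a3 (0.16, SE 0.29), Slc5a7 (0.08, SE 0.36), Ache (0.04, SE 0.28) and the intermediate filament gene Prph (-0.01, SE 0.28) differed by less than their SE. Of 10 tested visceral motor and vagal transcription factors none was called, with a median of -0.12. Tbx20, a T-box factor of visceral motor neurons, had a log2 difference of -0.37 (SE 0.52) and Hoxb5 of -0.06 (SE 0.38). Of 25 tested gut-brain and autonomic receptor genes none was called, and the median was -0.02. Such an interval held for 4 of them. None was higher in every mSOD library (4.09% of all genes were), and 3 were lower in every one (4.73%). These were Chrna3, the nicotinic receptor subunit of autonomic neurons, at 189, 197 and 191 CPM in mSOD and 206, 255 and 224 CPM in wt (log2 difference -0.25, SE 0.41), the neuropeptide Y receptor gene Npy2r (-0.44) and the melanocortin receptor gene Mc4r (-0.95). Cckar, the cholecystokinin receptor of vagal circuits, was at 43.1 to 61.4 CPM in mSOD and 39.8 to 64.5 CPM in wt (log2 difference 0.01).

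**Figure D3:**
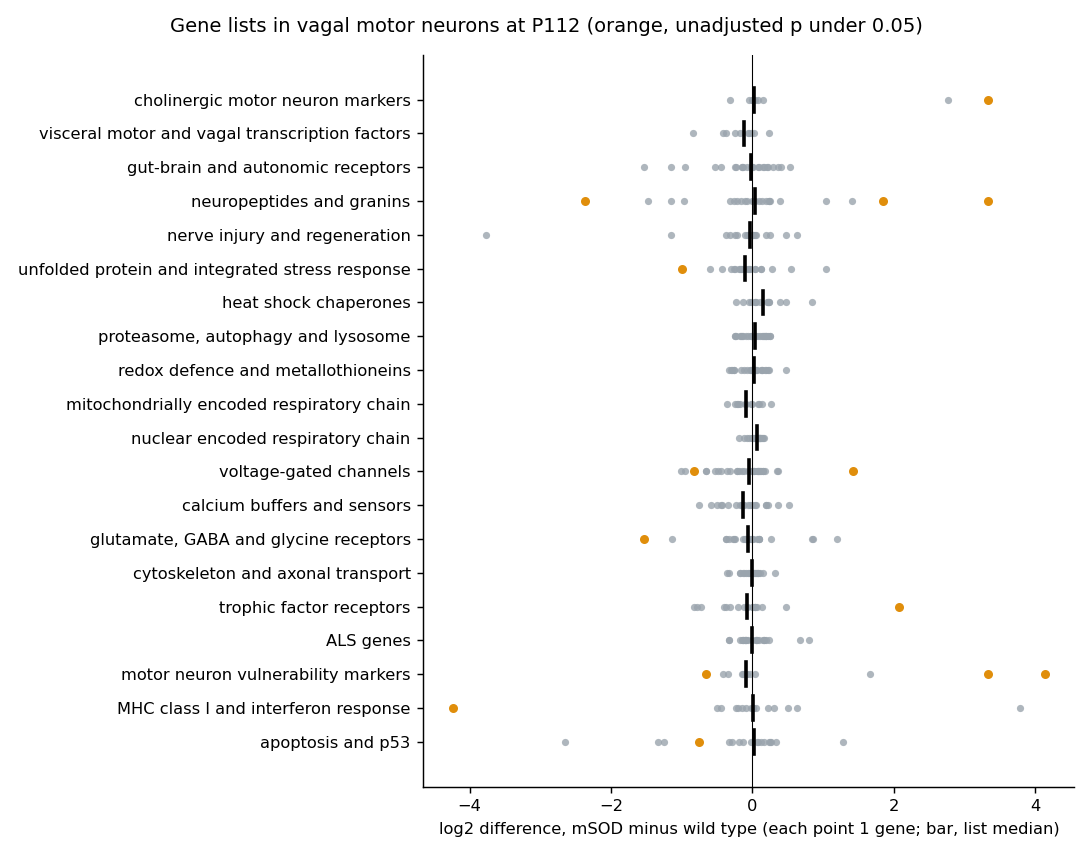
Log2 genotype difference (x axis, mSOD minus wild type) of each tested member of 20 gene lists in the vagal libraries at P112; each point is a gene, orange where the unadjusted p is under 0.05, and the bar is the median of the list. List medians lie between -0.13 and 0.15, and no list member was called, as no tested gene was.

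Genes of the nerve injury programme had a list median close to 0. None of the 18 tested was called or had an unadjusted p under 0.05, and the median log2 difference was -0.04. In the fit of all libraries the interval excluded a 2-fold change in either direction for 8 of the 18. It did not for the others, among them Gal (-1.74 to 1.11) and Adcyap1 (-1.68 to 1.24). Atf3, the transcription factor that marks injured neurons, had 0 counts in the 3 mSOD libraries and 0, 5 and 0 in wt, and Sprr1a, a protein of regenerating axons, had 2, 1 and 0 counts in mSOD and 1, 0 and 1 in wt. Gap43, a growth cone protein, was at 904, 1028 and 1019 CPM in mSOD and 1051, 1041 and 1069 CPM in wt (log2 difference -0.10, SE 0.40). Sox11, a developmental factor that injury induces again, was at 19.3, 10.8 and 14.6 CPM against 17.8, 10.8 and 15.7 CPM (0.01, SE 0.40). Gap43, Gal and Adcyap1, 3 of the 18, were lower in every mSOD library. Over all genes 4.73% were lower and 4.09% higher in this way. Hspb1, a small heat shock protein, was the member higher in every mSOD library, at 211, 269 and 271 CPM against 170, 162 and 210 CPM (log2 difference 0.47, SE 0.33).

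Genes of stress responses and protein quality control had list medians between -0.11 and 0.15. Of 21 genes of the unfolded protein and integrated stress response none was called and the median was -0.11. Ddit3, the factor CHOP of prolonged stress, was at 19.6, 27.8 and 35.6 CPM in mSOD and 26.8, 29.3 and 29.7 CPM in wt (log2 difference -0.04, SE 0.43), and Atf4, the transcription factor of the integrated stress response, had a log2 difference of 0.13 (SE 0.27). Hspa5, the main chaperone of the endoplasmic reticulum, had one of -0.18 (SE 0.25), and Creld2, a protein of the same compartment, was the member with an unadjusted p under 0.05, at 6.75, 9.97 and 3.43 CPM against 10.1, 18.7 and 11.1 CPM (-0.99). Of 16 heat shock chaperones none was called, with the highest median of the lists at 0.15, and 12 of 16 lay above 0, where 51.2% of all genes did. Hspa8 was at 2040, 2166 and 2757 CPM in mSOD and 2015, 1849 and 2050 CPM in wt (log2 difference 0.24, SE 0.17), and Hsp90aa1 at 2470, 2959 and 2239 against 2244, 2117 and 2223 CPM (0.22, SE 0.19). Both overlapped between the genotypes, and Hspb1, also on this list, did not. Of 25 genes of the proteasome, autophagy and lysosome none was called, all log2 differences lay between -0.25 and 0.25, and Sqstm1, the autophagy receptor p62, had a difference of -0.09 (SE 0.18).

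Genes of redox defence and the respiratory chain contained no called member. Of 24 tested genes of redox defence, the glutathione peroxidase genes Gpx1 (150, 140 and 175 CPM against 113, 91.3 and 130 CPM, log2 difference 0.48, unadjusted p 0.0541) and Gpx4 (0.19) were higher in every mSOD library. These were 2 of 24, where 4.09% of all genes were higher in this way, and 0 of the 24 were lower in every one. All 20 nuclear encoded genes of the respiratory chain had a 95% interval within -1 to 1, with differences between -0.19 and 0.16. The 13 mitochondrially encoded genes had a median of -0.08, and mSOD replicate 3 was the low library for the 4 most abundant of them, with mt-Co3 at 12779, 12260 and 5842 CPM in mSOD and 7817, 9657 and 8182 CPM in wt.

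Other disease-related groups contained no called gene. For the cytoskeleton and axonal transport, 23 of 24 genes had an interval within -1 to 1 and the median was 0.00; Tuba1a (log2 difference 0.01), Stmn2 (0.06), Nefl (-0.11) and Tubb3 (-0.07) were the most abundant. For genes mutated in or linked to amyotrophic lateral sclerosis, 21 of 23 tested genes had such an interval and the median was 0.00. Pfn1, the actin-binding profilin on both lists, was lower in every mSOD library, at 175, 216 and 206 CPM against 266, 253 and 228 CPM (log2 difference -0.32, SE 0.27). Of 13 tested markers of motor neuron vulnerability, genes that differ between vulnerable and resistant motor neurons or follow their subtypes, none was called and the median was -0.09. Rab3b, given above, and Hpcal1 were lower in every mSOD library, Hpcal1 at 430, 434 and 536 CPM against 586, 615 and 579 CPM (log2 difference -0.35, SE 0.22). These were 2 of 13, where 4.73% of all genes were lower in this way, and 0 of the 13 were higher in every one. Chodl, a marker of fast-fatigable motor neurons, was at 4.18, 4.99 and 0.21 CPM against 6.84, 1.49 and 3.91 CPM, with overlap. Esrrb, an orphan nuclear receptor gene, had no count in wt and at most 1.07 CPM in mSOD. Trophic factor receptors had a median of -0.07 over 19 genes, and Ret (0.01), Ntrk2 (0.04) and Ntrk3 (0.13) differed by less than their SE. MHC class I and interferon genes had a median of 0.01 over 17 genes, with B2m at -0.14 (SE 0.27). Its member with an unadjusted p under 0.05 was Ifit3, which had 0 counts in mSOD. Apoptosis and p53 genes had a median of 0.03 over 18 genes, with Sesn1, a p53 target, at -0.76 (unadjusted p 0.0424). Calcium buffers and sensors had the lowest median, -0.13 over 22 genes.

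Genes that were called in the affected nuclei were then read in the vagal neurons. At P112, 87 genes were called between mSOD and wt in SC (0.47%; 36 higher, 0.195%, and 51 lower, 0.276%) and 13 in CN12, all higher (0.0703%), 8 of them shared with SC. In the vagal neurons none of these genes was called, which follows from the absence of any called gene there. The 36 genes higher in SC had a median log2 difference of 1.99 there and -0.01 in CN10, with 16 above 0 and 18 below, and 17 of them had a CN10 interval within -1 to 1. The 51 genes lower in SC had a median of -1.59 there and -0.03 in CN10. Both sets were chosen by their SC values, which fixes the direction of the SC medians and tends to enlarge them. The CN10 medians had no part in that choice, so the gap between the medians is not a test of a difference. Odc1 was the gene of the higher set with an unadjusted p under 0.05 on the same side in CN10, and its differences stood close together, at 0.76 in CN10, 0.91 in SC and 1.18 in CN12. Of the lower set, Rab3b, Cacna1g and Syndig1l had an unadjusted p under 0.05 on the same side in CN10, and Pfkfb4 on the other. These counts, 1 of 36 and 4 of 51, stand beside 3.62% of all genes.

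**Figure D4:**
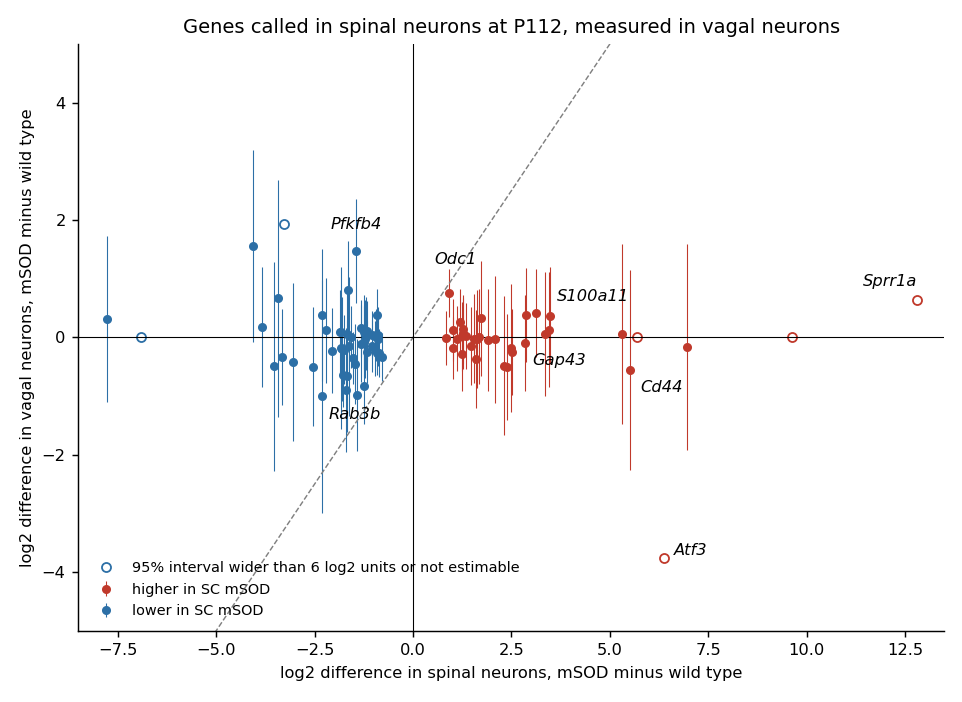
Log2 genotype difference in vagal neurons (y axis, with 95% interval) against that in spinal neurons (x axis) for the 87 genes called in spinal neurons at P112, higher in red and lower in blue; the dashed line marks equal differences, and the 6 open circles have an interval wider than 6 log2 units or none. Points lie along the horizontal axis, with Odc1 next to the dashed line and Pfkfb4 on the opposite side of 0. The genes were chosen by their spinal values, so their distance from the dashed line follows in part from that choice.

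Several of the genes that mSOD raised in CN12 or SC stood at a high level in vagal neurons of both genotypes. S100a11, a calcium-binding protein, was at 437, 448 and 735 CPM in mSOD and 368, 401 and 484 CPM in wt vagal neurons (log2 difference 0.37, SE 0.41). In CN12 it was at 50.5 to 135 CPM in mSOD and 0.28 to 1.65 CPM in wt, and in SC at 12.4 to 39.8 and 0 to 4.33 CPM. Wild-type vagal libraries thus held more S100a11 than the mSOD libraries of either other nucleus. Gap43 had a mean of 1054 CPM in wt vagal neurons, 187 CPM in mSOD CN12 and 116 CPM in mSOD SC, where wt was at 55.5 and 15.4 CPM. Gal had a mean of 2418 CPM in wt vagal neurons and 516 CPM in mSOD CN12, where wt was at 23.0 CPM. Cd63, a tetraspanin of late endosomes, was at 36.3, 55.4 and 78.1 CPM in mSOD and 50.3, 53.9 and 50.9 CPM in wt vagal neurons, and in CN12 at a mean of 42.8 CPM in mSOD and 5.72 CPM in wt. Its vagal level was therefore close to that of mSOD CN12. Rgs10, a regulator of G protein signalling, had a mean of 96.8 CPM in mSOD and 114 CPM in wt vagal neurons, and 2.01 CPM in wt SC. Cd44, a hyaluronan receptor, was low and variable in vagal neurons, at 11.2, 1.84 and 2.57 CPM in mSOD and 3.56, 12.1 and 6.91 CPM in wt. Its mean in wt SC was 0.19 CPM. Sprr1a and Atf3 showed the other pattern, near 0 in both genotypes of the vagal neurons and in wt of the other nuclei, with a mean of 704 CPM of Sprr1a in mSOD CN12 and 462 CPM in mSOD SC.

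**Figure D5:**
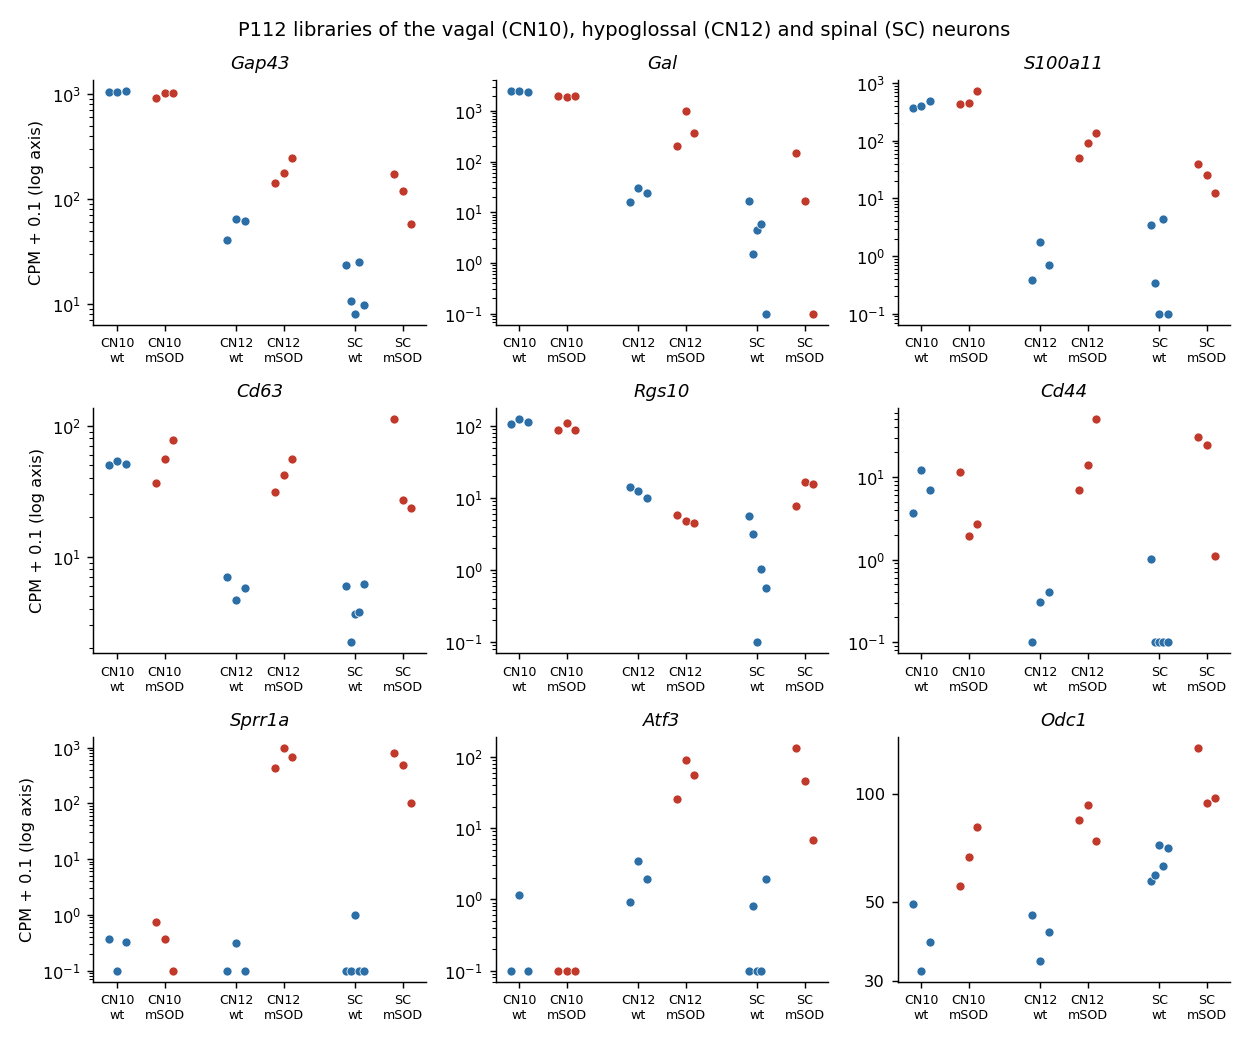
CPM + 0.1 (log axis) of 9 genes in each P112 library of the vagal (CN10), hypoglossal (CN12) and spinal (SC) neurons, wild type in blue and mSOD in red. Gap43, Gal, S100a11, Cd63 and Rgs10 are high in both vagal genotypes, Sprr1a and Atf3 stay near 0 there, and Odc1 is higher in mSOD in each nucleus.

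The contrast of wt libraries between CN10 and CN12, all in project P10814, put numbers on these wt levels. Of the 18493 genes 2976 (16.1%) were called, 1385 higher in CN10 (7.49%) and 1591 lower (8.6%); at P56, in other libraries, 3276 were called (17.7%), and 1091 genes were higher and 1201 lower at both ages. Among the higher genes, Hpcal1, a neuronal calcium sensor, was higher by 3.30 (SE 0.22, edgeR adjusted p 4.06e-15) and Gap43 by 4.25 (SE 0.41). S100a11 was higher by 8.78 (SE 0.77), Gal by 6.71 (SE 0.74) and Cd63 by 3.18 (SE 0.54). The genotype effects of S100a11, Gal and Cd63 in CN12 were measured against these same wt CN12 libraries. Low wt values there raise both differences, so no p-value is given for these genes. The lower genes were led by the neurofilament gene Nefh (-3.88, SE 0.17, edgeR adjusted p 1.54e-21), the calcium-binding Caln1 (-5.34) and the sodium channel gene Scn8a (-3.13). Of the 18 tested nerve injury genes 8 were higher and 2 lower in CN10, of the 13 tested markers of motor neuron vulnerability 3 were higher and 8 lower, and of the 32 voltage-gated channel genes 8 were higher and 15 lower. Mmp9, the matrix metalloproteinase of fast-fatigable motor neurons, differed by -3.37 log2 units, and Chodl by -5.89. Markers of other cells differed in this contrast as well. Of 12 tested microglial markers 4 were higher in CN10 and 0 lower, and of 12 astrocyte markers 3 and 2. Of 5 tested catecholamine markers 4 were higher and 0 lower, and of 12 oligodendrocyte markers 0 and 4. Gfap was higher by 5.35 to 6.17 log2 units whichever library was left out. How far such cells add to the levels given here was not tested. Of the 36 genes called higher in mSOD SC, 15 were higher and 1 lower in wt CN10 than in wt CN12, and of the 51 called lower in SC, 6 were higher and 30 lower. These sets were chosen on SC libraries, which the contrast does not use. Calls made in CN12 share its wt libraries with the contrast and are not counted here.

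Direct tests of whether the genotype effect differed between nuclei called few genes. Between CN10 and CN12, 3 genes were called (0.0162%; 661 genes, 3.57%, at an unadjusted p under 0.05): S100a11 (difference of effects -6.06, SE 0.88, edgeR adjusted p 1.69e-05) and its processed pseudogenes Gm7665 and Gm12854. The pseudogenes share 59.6% and 84.6% of their 31-base words with S100a11 transcripts, so reads may have been divided among the 3 genes. Of the mSOD libraries in CN12, 1 came from project P11355, as did 1 of SC, and 1 mSOD and 3 wt libraries of SC came from P6362; the model held a project term. Between CN10 and SC none was called by edgeR (0%; 6.83% of genes at an unadjusted p under 0.05), and DESeq2 called 28. Pfkfb4, Ccdc88c and Gap43 shared the smallest adjusted p of 0.0584 in edgeR's test. Pfkfb4 was called lower in mSOD SC (log2 difference -1.46, adjusted p 0.0488), at 6.26 to 14.0 CPM against 22.3 to 41.8 CPM in wt, and its effect in CN10 exceeded that in SC by 2.93 (SE 0.57). Gap43 had a difference of effects of -2.94 (SE 0.58). Both tests use the same CN10 libraries. For Sprr1a and Atf3 no fold can be given in CN10, where both genotypes were at or near 0, and the tests of their difference did not pass (adjusted p 0.815 and 0.497 against SC).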

How the data were processed

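The authors deposited a table of raw read counts per gene and a table of RPKM values for 54 libraries. Per the submitters' processing notes, reads were aligned with STAR 2.7.0e to mm39; the counter and the annotation are not given in the sources used here. The labels do not pair libraries. Symbols came from a GENCODE gene table matched by gene ID (52079 of 55354 IDs); no coordinates are given because the annotation used here is of another build.

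Counts were tested with edgeR 4.0.16 in R 4.3.3 (trimmed mean of M-values, filterByExpr over 16 groups, robust quasi-likelihood F test, group and project terms, all 54 libraries) over 18493 mouse genes, with Benjamini-Hochberg adjustment and a threshold of 0.05. The human SOD1 row was kept in library sizes and left out of the tests. SE and 95% intervals are Wald estimates from the fit; p-values are two-sided. Genes that share reads with copies are uncertain. Code was tested on simulated data. The rank of Gal among all entries was taken from the deposited RPKM values. List members described as the most abundant were ordered by mean CPM, which is not scaled by gene length.

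Named genes were the 10 higher and 10 lower with the smallest p, a gene name other than a Gm, Rik or pseudogene label and no overlap between genotypes, 5 each among genes of at least 50 CPM, list members with an unadjusted p under 0.05 or among the 4 most abundant, the genes with the smallest p in the other comparisons, and a set of motor neuron, injury and stress genes. Other list members (such as Penk, Adcyap1, Scg3, Mc4r, Hspb1, Gpx1, Pfn1 and Glra2) and Cd44, Rgs10 and Mmp9 were named after their values were seen. The members and lists were chosen with earlier results of these data known. Alternatives were another scaling (RLE), no filter on low counts, DESeq2 1.42.0, no project term, fits of fewer libraries, removal of human SOD1 and leaving out each library. Some genes that this rule names are not reported here.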

Additional observations from a re-analysis of the deposited data

Results flagged for a closer look

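The genotype effect at P112 differed between CN10 and CN12 by an interaction test for 3 genes. For S100a11 the difference of effects (CN10 minus CN12, log2) was -6.06 (SE 0.88, edgeR adjusted p 1.69e-05): the effect was 0.37 in CN10 and 6.43 in CN12. For its pseudogene Gm7665 it was -5.84 (SE 1.12, edgeR adjusted p 5.71e-05) and for Gm12854 -5.69 (SE 0.99, edgeR adjusted p 6.48e-05). Gm7665 was at 108, 131 and 209 CPM in mSOD and 91.4, 116 and 128 CPM in wt vagal neurons, and Gm12854 at 167, 173 and 303 against 142, 163 and 189 CPM, so the genotypes overlapped for both.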

How the results depend on the processing

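Without the filter on low counts, edgeR called 13 genes in CN10 at P112 (6 higher, 7 lower, among them Calca, Calcb, Vip, Gria3, Lypd6b and Glra2), 30 for the age difference, 106 for CN10 minus SC and 37 for CN10 minus CN12. DESeq2 called 4, 8, 28 and 8, and its 4 CN10 genes had at most 6 counts in any library. Without a project term 2 genes were called for CN10 minus SC, and in fits of only the groups compared 3 were called for CN10 minus SC and 5 for CN10 minus CN12. The cause was not tested. The CN10 count at P112 was 0 under the other scaling, without human SOD1, in P10814 libraries alone, in the 6 libraries alone, at an adjusted p under 0.10 and with each CN10 library left out (535 to 849 genes at an unadjusted p under 0.05). Leaving out 1 library gave 0 to 2 genes for the age difference, 0 to 13 for CN10 minus SC (13 without SC wt replicate 1, 11 without SC mSOD replicate 1) and 3 to 4 for CN10 minus CN12. The wt contrast of CN10 and CN12 gave 2626 to 4263 genes over the settings and 2194 to 2400 with a library left out. Of 1815 single-gene values in CN10, 5 passed the threshold, all without the filter. Among genes with an unadjusted p of 0.05 or more, 135 values of 65 genes had the other sign. Among those with an unadjusted p under 0.05, 2 turned direction, both without mSOD replicate 1: Calcb (-2.55; up to 3.27 without wt replicate 1) and Gfra1 (-1.50; up to 2.77 without mSOD replicate 3). Depth limits genes under 10 CPM. No paired analysis was possible because the labels number no replicates.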
